A study of Rattus norvegicus with 2 samples.

Results

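The genes described here encode the proteins that license origins of DNA replication and run the replication fork. They were taken by gene symbol from the deposited table: the numbered Mcm, Orc, Rfc, Gins, Rpa, Pola, Pold, Pole and Prim genes, with Pcna, Cdc6, Cdt1, Cdc45, Gmnn, Fen1, Rrm1 and Rrm2. The rule found 46 of 23282 genes. Levels were measured by RNA sequencing of total RNA in 2 libraries of the rat embryonic stem cell line DA-EC8/Rrrc, of the Dark Agouti strain. Both libraries came from wild-type cells at passage 30 with a normal karyotype, grown untreated in 2i medium, which inhibits the kinases MEK and GSK3. The series describes the 2 libraries as biological replicates, without saying how the cultures were separated. They form 1 group, so no contrast between conditions exists and no test between groups was possible. The line is 1 cell line from a single strain, and the labels name no sorting by cell cycle phase. Values are RPKM, in which reads are divided by the length of the gene model and by the size of the library, so levels of different genes compare per length of transcript.

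Before S phase, the origin recognition complex (ORC) with Cdc6 and Cdt1 loads the ring-shaped MCM2-7 helicase onto origins in an inactive form, a step called licensing. Geminin, encoded by Gmnn, binds Cdt1 and blocks a new round of licensing until the next cycle. In S phase Cdc45 and the GINS complex join MCM2-7 to form the active helicase. Polymerase alpha-primase lays down primers, polymerase epsilon mainly extends the leading strand, polymerase delta mainly the lagging strand, and PCNA, the sliding clamp loaded by the RFC complex, holds polymerases on DNA. Embryonic stem cells are known for a quick cycle with a short G1 phase. The share of cells in S phase was not measured here, and in bulk RNA fewer expressing cells and less RNA per cell cannot be told apart.

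All 46 genes were detected, at a mean of at least 1 RPKM, where 46.4% of all genes in the table were. At least 10 RPKM was reached by 44 of the 46, against 29.4% of all genes, and at least 100 RPKM by 9 of the 46, against 4.0% of all genes. The median level of the 46 genes was 44.0 ± 0.797 RPKM (SD, n = 2), from 44.5 in replicate 1 and 43.4 in replicate 2. The median of all 23282 genes was 0.536 ± 0.0284 RPKM, and that of the 10814 detected genes was 16.7 ± 0.151 RPKM. Of the 46 genes 41 lay above the median of detected genes. The 5 below it were Rrm2, Pole3, Gins2, Gins3 and Pold4. The 6 MCM2-7 genes held 28.6% of the summed RPKM of the 46 genes.

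**Figure D1:**
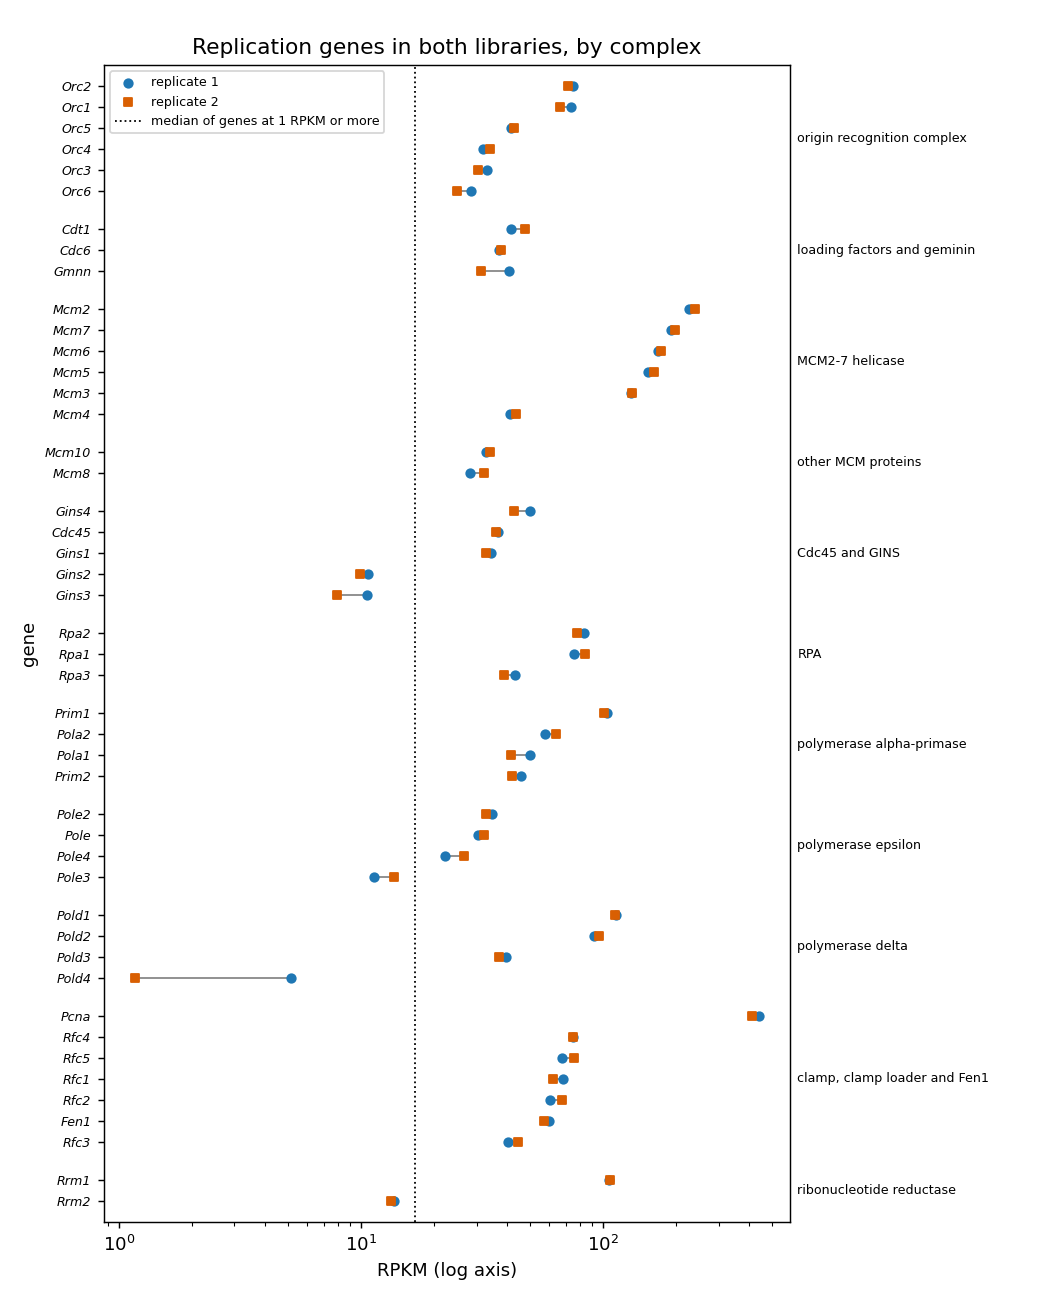
Level of each of the 46 genes in RPKM on a log axis, grouped by complex, with a circle for replicate 1, a square for replicate 2 and a dotted line at the median of detected genes (16.7 RPKM). Pcna and 5 of the 6 MCM2-7 genes stand furthest to the right, and Pold4, the gene furthest to the left, is the one whose replicates lie far apart.

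The table gives no depth, but the steps between its values fit totals of 2991184 reads (replicate 1) and 3050685 reads (replicate 2). A gene model of 2 kb with 3 reads would then be listed at 0.501 and 0.492 RPKM. Whole numbers of reads in both libraries came out for 31 of the 45 genes with a single row. They ranged from 16 reads over both libraries (Pold4) to 5477 (Mcm7), with a median of 590. These reads cover counting error only. As a check of the label, all 10 pluripotency markers were detected. Utf1 (655 ± 14.1 RPKM, SD, n = 2), Pou5f1, which encodes the core factor of pluripotency (584 ± 9.94 RPKM), and Tdgf1 (344 ± 14.2 RPKM) were highest, and Klf4 was lowest at 7.06 ± 0.594 RPKM. Of 10 fibroblast and feeder cell markers 3 were detected, none at 10 RPKM, and Col1a2, Lum and S100a4 were listed at 0. The 5 blood cell markers all stayed below 1 RPKM, with Cd68 (0.964 ± 0.182 RPKM), Lyz2 (0.278 ± 0.00387 RPKM) and Runx1 (0.248 ± 0.120 RPKM) highest and Hbb listed at 0.

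The promoters of these genes are shown first because many share a short sequence that the choice of genes did not use. E2F transcription factors, which regulate genes for S phase, are known to bind sites such as TTTGGCGC, TTTCCCGC and TTTCGCGC. These 3 sequences of letters were searched on both strands in RefSeq promoter windows (build GRCr8), which reach from 250 bases before the annotated start of the gene to 50 bases after it. A window was present for 39 of the 46 genes. Windows for Cdc6, Gins4, Mcm4, Orc1, Orc4, Rpa3 and Rrm2 were not analysed here. At least 1 match was found in 18 of the 39 windows (46.2%), against 577 of 33469 windows over all genes (1.72%). Windows of detected genes outside the 46 held a match in 334 of 9821 cases (3.40%). The windows differ in base composition, with a median GC content of 59.7% in the 39 and 51.7% in all windows, and the part of this in the match rate was not tested. A match is a run of letters and does not show that a factor binds there.

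All 5 MCM2-7 genes with a window held matches, and these windows are printed 5′ to 3′ with the matching letters in capitals. The window of Pcna, the most abundant of the 46 genes, is printed beside them because it held none. Positions count from the first transcribed base as 0. Mcm2 (chr4:122918045-122918344, minus strand) had matches from -14 to -7 and from -10 to -3, on opposite strands and overlapping. Mcm3 (chr9:30733697-30733996, minus strand) had them from -6 to 1 and from 13 to 20. Mcm5 (chr19:13488563-13488862, plus strand) had an overlapping pair from -213 to -206 and from -209 to -202, and another match from -8 to -1. Mcm6 (chr13:42404303-42404602, minus strand) had an overlapping pair from -139 to -132 and from -135 to -128. Mcm7 (chr12:22163129-22163428, minus strand) had matches from -233 to -226 and from -52 to -45. Pcna lay at chr3:139955771-139956070, minus strand.
Mcm2: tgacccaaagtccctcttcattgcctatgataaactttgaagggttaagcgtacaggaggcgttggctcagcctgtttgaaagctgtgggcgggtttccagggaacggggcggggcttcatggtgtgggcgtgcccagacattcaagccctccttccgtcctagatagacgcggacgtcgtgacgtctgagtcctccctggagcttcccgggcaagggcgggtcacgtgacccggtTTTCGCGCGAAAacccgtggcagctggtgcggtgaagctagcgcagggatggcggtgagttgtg
Mcm3: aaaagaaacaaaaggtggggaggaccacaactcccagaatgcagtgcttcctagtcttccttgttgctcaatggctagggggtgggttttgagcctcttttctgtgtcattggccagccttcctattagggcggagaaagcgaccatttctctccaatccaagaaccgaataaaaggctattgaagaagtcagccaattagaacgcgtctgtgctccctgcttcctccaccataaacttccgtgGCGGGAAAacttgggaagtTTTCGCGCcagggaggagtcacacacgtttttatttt
Mcm5: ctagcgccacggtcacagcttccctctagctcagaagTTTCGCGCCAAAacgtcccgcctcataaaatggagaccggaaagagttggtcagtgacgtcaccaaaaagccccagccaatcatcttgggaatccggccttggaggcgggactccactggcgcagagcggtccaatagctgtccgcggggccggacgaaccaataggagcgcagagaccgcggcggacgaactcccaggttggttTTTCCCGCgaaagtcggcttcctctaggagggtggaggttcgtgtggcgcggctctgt
Mcm6: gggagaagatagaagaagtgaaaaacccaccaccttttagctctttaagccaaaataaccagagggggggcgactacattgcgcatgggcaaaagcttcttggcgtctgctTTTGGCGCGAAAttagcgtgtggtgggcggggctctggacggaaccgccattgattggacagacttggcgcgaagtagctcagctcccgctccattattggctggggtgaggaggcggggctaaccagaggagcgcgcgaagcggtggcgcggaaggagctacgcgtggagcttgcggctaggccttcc
Mcm7: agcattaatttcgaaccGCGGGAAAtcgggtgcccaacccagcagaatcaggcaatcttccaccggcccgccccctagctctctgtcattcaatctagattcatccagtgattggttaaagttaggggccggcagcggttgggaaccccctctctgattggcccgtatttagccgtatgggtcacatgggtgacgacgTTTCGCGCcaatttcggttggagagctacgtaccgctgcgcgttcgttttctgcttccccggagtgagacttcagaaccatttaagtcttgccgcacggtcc
Pcna: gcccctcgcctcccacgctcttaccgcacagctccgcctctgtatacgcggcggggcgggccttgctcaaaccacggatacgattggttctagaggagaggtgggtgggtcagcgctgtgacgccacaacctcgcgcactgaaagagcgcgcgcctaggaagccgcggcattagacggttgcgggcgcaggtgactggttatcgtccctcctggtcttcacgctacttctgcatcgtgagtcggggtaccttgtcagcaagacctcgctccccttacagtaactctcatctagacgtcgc

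Overlapping matches on opposite strands occurred in 4 of the 39 windows (Mcm2, Mcm5, Mcm6 and Gins1) and in 6 of all 33469. Of the 27 matches in the 39 windows 18 began no more than 50 bases before the start or after it (66.7%), against 208 of 606 matches in all windows (34.3%). By role, matches were found for both licensing regulators with a window, Cdt1 and Gmnn, and for 3 of 4 polymerase epsilon genes (Pole, Pole2 and Pole4). They were found for Orc3 and Orc5 of 4 ORC genes, Gins1 and Gins3 of 4 windows for Cdc45 and GINS, and Mcm8 but not Mcm10. Only 1 of 4 polymerase alpha-primase genes (Pola1), 1 of 4 polymerase delta genes (Pold3) and 1 of 7 genes in the group of the clamp, its loader and Fen1 (Rfc3) had one. Rpa1, Rpa2 and Rrm1 had none. Windows follow the annotated start, and where that start lies inside the gene a window can miss the promoter. In the Pold1 window the letters ATG stand right at the annotated start, so its lack of a match says little. The starts of the other windows were not checked for this. Only the 3 exact sequences were searched, so a window without a match may hold other E2F sites. The windows of Cdc45, Mcm10 and Pola2, for example, hold TTTGGCGG, which differs from TTTGGCGC only in its last letter. The presence of a match did not go with a higher level: the median was 40.1 ± 0.858 RPKM (SD, n = 2) over the 18 genes with a match and 67.5 ± 0.119 RPKM over the 21 without. The SD covers the libraries and not the choice of genes, and the difference was not tested.

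Other cell cycle promoter letters were also searched. CCAAT, the site of the NF-Y factor, was found in 24 of the 39 windows (61.5%), against 37.5% of all windows and 37.9% of those of detected genes outside the 46, and 11 of the 39 held both it and an E2F-type match, against 203 of all 33469 windows. TTTGAA, the letters of the cell cycle homology region found in genes of late cycle phases, was found in 3 of the 39 windows (7.69%), against 18.3% of all windows and 11.7% of those of detected genes outside the 46. These 3 were Mcm2, Gins3 and Pole2. In Mcm7 a CCAAT match shares its first base, at -45, with the end of an E2F-type match. None of these shares was tested.

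**Figure D2:**
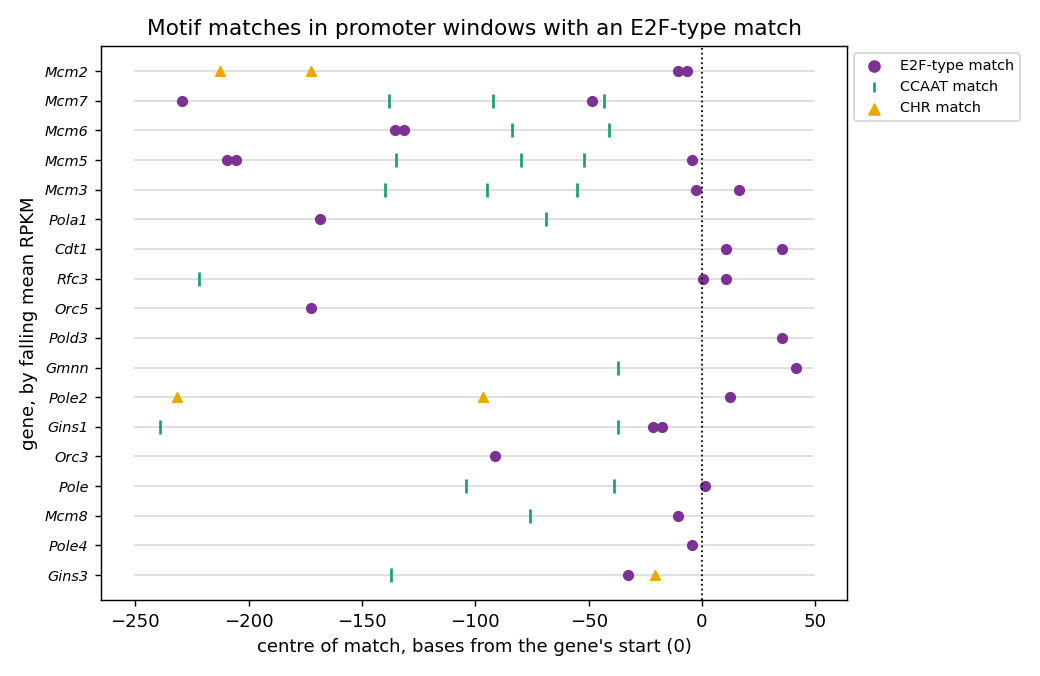
Centres of motif matches in the 18 promoter windows with an E2F-type match, in bases from the start of the gene (0), with genes ordered by falling mean RPKM. Circles mark E2F-type matches, bars CCAAT and triangles the cell cycle homology letters, and 18 of the 27 E2F-type matches begin 50 bases before the start or later.

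The ORC, which marks origins, was present at moderate levels with uneven subunits. Here and below the value of replicate 1 is given first. Orc2 was highest at 75.1 and 71.9 RPKM. Orc1, the ATPase subunit that changes most over the cycle at the protein level, was at 73.7 and 66.5 RPKM. Both stood apart from the other 4, of which Orc5 was at 41.5 and 42.9 RPKM, Orc4 at 31.9 and 34.1 RPKM, and Orc3 at 33.1 and 30.4 RPKM. Orc6, the smallest subunit, was lowest at 28.5 and 25.0 RPKM. The order of Orc3 and Orc4 turned between the replicates, so these 2 are not separated. Orc1 exceeded Orc6 by 1.36 ± 0.026 (log2 of RPKM + 1, SD, n = 2).

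The factors that load the helicase were close to one another. Cdc6, the ATPase that joins ORC, was at 37.1 and 37.9 RPKM. Cdt1, which brings MCM2-7 to ORC, was at 41.5 and 47.6 RPKM. Gmnn, its inhibitor, was at 40.9 and 31.4 RPKM. Gmnn and Cdt1 were thus nearly equal in replicate 1 and apart in replicate 2. Their difference, Gmnn minus Cdt1, was -0.30 ± 0.40 (log2 of RPKM + 1, SD, n = 2), smaller than its own spread.

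The MCM2-7 helicase genes were the most abundant complex, except for 1 subunit. Mcm2 (Entrez gene 312538, rn5 build, chromosome 4, 186066380 to 186080792) was at 226 and 239 RPKM. Mcm7 followed at 190.2 and 198 RPKM, Mcm6 at 168 and 174 RPKM, Mcm5 at 153 and 162 RPKM, and Mcm3 at 129.9 and 131 RPKM. Replicates of these 5 genes did not overlap with those of the next gene in order. Mcm4 (Entrez gene 29728, chromosome 11, 92565514 to 92579215) was at 41.3 and 43.8 RPKM, from 412 and 446 reads. It lay below Mcm3, the next lowest subunit, by a log2 difference of 1.60 ± 0.048 and below Mcm2 by 2.42 ± 0.0053 (log2 of RPKM + 1, SD, n = 2), although the hexamer holds 1 copy of each. RefSeq names a pseudogene of Mcm4, and also of Mcm2 and Mcm7. How reads that map to several places were counted is not given in the sources used here, and the part of such copies in these levels was not tested.

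The median of the 6 helicase genes was 164 ± 5.08 RPKM, against 37.9 ± 0.856 RPKM for the 6 ORC genes (SD, n = 2). On the scale of log2(RPKM + 1) MCM2-7 was higher by 2.10 ± 0.013, beyond the spread between replicates, which does not cover the choice of genes. From means of log2(RPKM + 1) over the genes of each complex it was higher by 1.66. The other numbered Mcm genes found by the rule, which share the name but are not part of the hexamer, were lower. Mcm10, which helps to activate the loaded helicase, was at 32.8 and 34.0 RPKM. Mcm8, which acts in recombination, was at 28.3 and 32.1 RPKM. MCM2-7 lay above these 2 genes by 2.34 ± 0.035 (log2). Mcm9, the partner of Mcm8, stood in the table under the name RGD1560557 and so outside the rule, at 3.83 and 4.49 RPKM. It was looked up after values were seen.

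The partners that turn MCM2-7 into the active helicase were well below it. Cdc45 was at 36.8 and 36.2 RPKM. The GINS genes fell into a higher and a lower pair, although the complex holds 1 copy of each subunit. Gins4 was at 49.8 and 43.0 RPKM and Gins1 at 34.5 and 32.9 RPKM. Gins2 was at 10.7 and 9.94 RPKM and Gins3 at 10.6 and 7.95 RPKM. The pairs did not overlap, and Gins1 exceeded Gins2 by 1.62 ± 0.019 (log2 of RPKM + 1, SD, n = 2). The RNA of Gins3 was counted from 73 and 56 reads, so its 2 values carry a large counting error.

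RPA, which coats single-stranded DNA at the fork, had the second highest median of the complexes, 76.5 ± 1.57 RPKM. Rpa1 was at 75.4 and 84.1 RPKM and Rpa2 at 83.7 and 77.7 RPKM, an order that turned between replicates. Rpa3, the smallest subunit, was at 43.3 and 38.8 RPKM, from 80 and 73 reads. RefSeq names 2 pseudogenes and 1 coding copy of Rpa3.

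Polymerase alpha-primase starts each new strand. Prim1, the catalytic subunit of primase, was at 103.7 and 100.8 RPKM, and Prim2, the other primase subunit, at 45.7 and 42.0 RPKM. Pola2 was at 57.4 and 63.6 RPKM. Pola1, the catalytic polymerase, was the only gene of the 46 with several rows, 2 neighbouring stretches of the X chromosome at 26.4 and 24.5 RPKM and at 23.4 and 17.2 RPKM. Their sums, 49.9 and 41.7 RPKM, were used, and each row was normalised to its own length, so the sum can overstate the level. Prim1 exceeded Prim2 by 1.20 ± 0.055 (log2 of RPKM + 1, SD, n = 2).

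The catalytic subunits of the main fork polymerases differed. Pold1, of polymerase delta, was at 113 and 112 RPKM, and Pole, of polymerase epsilon, was at 30.5 and 32.3 RPKM. Pold1 exceeded Pole by 1.81 ± 0.066 (log2 of RPKM + 1, SD, n = 2). Pold2 was at 91.6 and 95.7 RPKM, and Pold3, an accessory subunit, at 39.5 and 37.2 RPKM. Pold4, the smallest and an accessory subunit that is not needed for the core enzyme, was the lowest of the 46 genes at 5.16 and 1.17 RPKM, from 13 and 3 reads. Pole2 was at 34.9 and 32.9 RPKM. The histone-fold subunits of polymerase epsilon were lower, Pole4 at 22.3 and 26.7 RPKM and Pole3 at 11.3 and 13.7 RPKM. RefSeq names 3 pseudogenes of Pole3, and the deposited table names the NF-Y subunit genes Nfyb and Nfyc as paralogs of Pole3 and Pole4.

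Pcna (Entrez gene 25737, rn5 build, chromosome 3, 131376235 to 131380108) was the highest of the 46 genes, at 441 and 413 RPKM, and ranked 85 in the table. The clamp is a ring of 3 identical subunits, so 1 gene supplies the whole ring. Its loader was more even than most complexes. Rfc4 was at 75.1 and 75.3 RPKM, Rfc5 at 67.4 and 75.9 RPKM, Rfc1, the large subunit, at 68.1 and 62.3 RPKM, and Rfc2 at 60.2 and 67.6 RPKM. Rfc3 was lowest at 40.5 and 44.3 RPKM, and the other 4 overlapped in part. The highest exceeded the lowest by 1.78 ± 0.110 times in RPKM (SD, n = 2), against 5.47 ± 0.0246 times within MCM2-7 and 5.06 ± 0.499 times within GINS. Fen1, the nuclease that trims the flaps of Okazaki fragments, was at 59.5 and 57.2 RPKM. RefSeq names pseudogenes of Pcna, Rfc4 and Rfc5, and elsewhere among the 46 genes of Gmnn, Gins4, Rpa1 and Rrm1. The part of such copies in these levels was not tested.

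Ribonucleotide reductase, which makes deoxynucleotides, had unequal subunits. Rrm1, the large subunit, was at 105.5 and 107 RPKM. Rrm2, the small subunit that S phase cells renew, was at 13.6 and 13.4 RPKM, from 103 reads in each library. Rrm1 exceeded Rrm2 by 2.89 ± 0.033 (log2 of RPKM + 1, SD, n = 2). The deposited table lists a copy of Rrm2 as a separate gene, LOC100359539, at 5.32 and 4.96 RPKM, and its part in the level of Rrm2 was not tested. Rrm2b, the alternative small subunit that p53 induces, was at 10.1 and 10.3 RPKM. Rrm2 exceeded it by 0.37 ± 0.028 (log2).

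Other genes of the pathway, taken from lists chosen with earlier results of these data known, were nearly all detected too. Of 14 pre-initiation and firing factors all were detected and 11 reached 10 RPKM, with a median of 26.1 ± 2.46 RPKM (SD, n = 2). Ccna2, the S phase cyclin, was highest at 127.5 ± 1.10 RPKM, followed by Ccne1 (71.9 ± 1.38 RPKM) and the MCM-binding protein gene Mcmbp (69.3 ± 0.702 RPKM). Ccne2 was lowest at 4.04 ± 1.28 RPKM. Of the kinase that fires origins, Cdc7 was at 20.3 and 16.4 RPKM, near the median of detected genes. Its activator Dbf4 was below that median, at 6.99 and 5.79 RPKM. These 2 were named after their values were seen.

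Of 18 genes for fork protection, clamp loading, lagging strand work and chromatin at the fork all were detected, with a median of 34.2 ± 2.78 RPKM. The topoisomerase gene Top2a led at 255 ± 7.85 RPKM, followed by Ssrp1 (231 ± 1.48 RPKM) and Supt16h (149 ± 2.11 RPKM), the subunits of the histone chaperone FACT. Tipin, a fork protection gene, was lowest at 7.57 ± 1.03 RPKM. Lig1, the ligase that joins Okazaki fragments, was at 20.9 and 18.6 RPKM, below Fen1 in both replicates. Lig1 was named after its value was seen.

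All 15 nucleotide supply genes reached 10 RPKM, with a median of 84.2 ± 2.74 RPKM. Impdh2, of guanine nucleotide synthesis, was highest at 262 ± 3.32 RPKM, followed by Dut (138 ± 13.7 RPKM) and Cad (118 ± 3.43 RPKM), and Rrm2b was lowest. All 12 genes of licensing turnover, which include the ubiquitin ligases that destroy Cdt1, reached 10 RPKM. Ddb1 (563 ± 18.7 RPKM), Cul4b (317 ± 6.72 RPKM) and Skp1 (299.6 ± 9.76 RPKM) led them, and Otud6b was lowest at 26.0 ± 1.05 RPKM. Of 18 genes for E2F factors, pocket proteins and their partners all were detected and 10 reached 10 RPKM. Mybl2 (158 ± 4.84 RPKM), Tfdp1 (72.3 ± 2.69 RPKM) and E2f4 (70.7 ± 7.52 RPKM) were highest, and E2f2 was lowest at 1.81 ± 0.113 RPKM. This list of E2F factors, pocket proteins and partners as a whole had a median of 12.6 ± 0.485 RPKM, below that of the 46 replication genes in both replicates.

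The 46 genes were set beside mitotic genes and beside the polymerases of translesion synthesis and repair. The 16 mitotic genes had a median of 86.5 ± 1.26 RPKM and were led by Ccnb1 (259 ± 13.3 RPKM), Cdk1 (177 ± 9.56 RPKM) and Plk1 (110.9 ± 5.08 RPKM), with Ccnb2 lowest at 7.70 ± 4.22 RPKM. The median of the replication genes lay at -0.96 ± 0.0045 relative to the mitotic median (log2 of RPKM + 1, SD, n = 2). Of 12 translesion and repair polymerase genes 11 had a row, 10 were detected and none reached 100 RPKM. Poll (35.3 ± 1.34 RPKM), Mad2l2 (26.2 ± 0.162 RPKM) and Rev1 (24.5 ± 1.31 RPKM) were highest, Polq was lowest at 0.778 ± 0.176 RPKM, and Poln was not analysed here. The replication genes lay above this list by 2.27 ± 0.156 (log2). Both differences exceeded the spread between replicates, which does not cover which genes a list holds, and neither was tested.

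**Figure D3:**
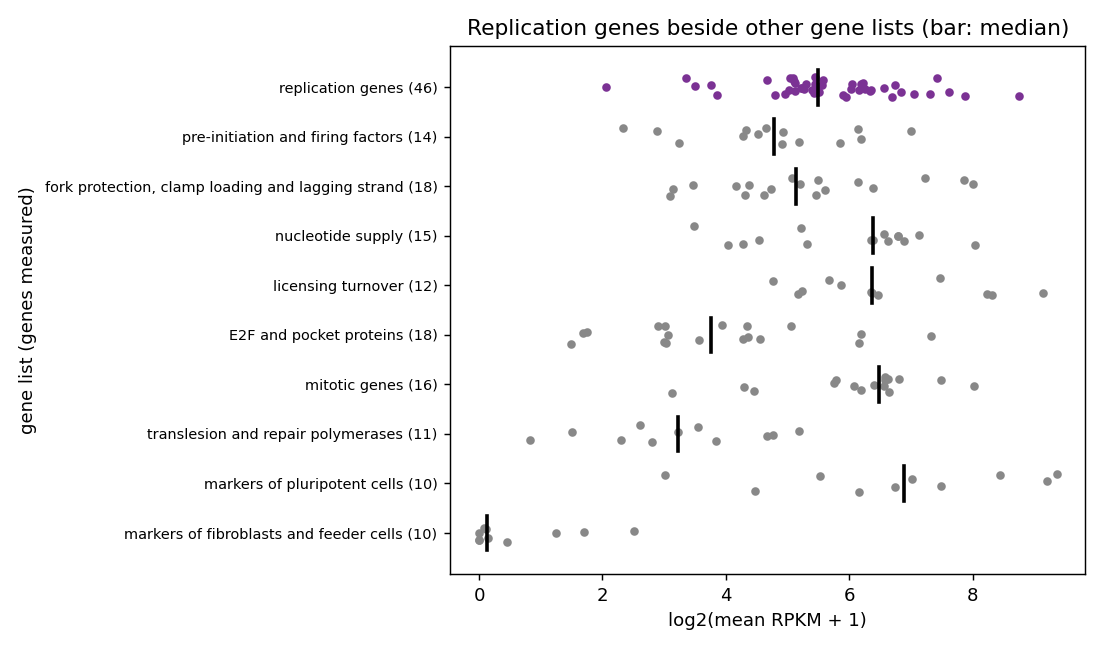
Mean level of each gene, as log2(RPKM + 1), in the 46 replication genes and 9 other lists, with the number of measured genes in brackets and a bar at each median. The replication genes lie between the mitotic genes (median 86.5 RPKM) and the translesion and repair polymerases (median 8.38 RPKM).

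Gene annotation in the deposited table was also read. The Gene Ontology term for DNA replication was attached to 28 of the 46 genes (60.9%) and to 78 of all 23282 genes (0.335%). The 46 genes were chosen by name for this process, so their high share follows from the choice. The other 50 genes with the term, a list chosen after values were seen, had a median of 20.0 ± 0.504 RPKM, with 43 detected and 6 at 100 RPKM or more. Nasp, a histone chaperone gene, was highest of them at 550.2 ± 18.5 RPKM, followed by Rbbp7 (440.4 ± 5.82 RPKM) and Ssrp1, and Gmnc was listed at 0. By position, chromosome 1 held the most of the 46 genes, 6 (13.0%), near its 14.3% of the genes in the table. Chromosomes 12 and 19 held 5 of the 46 genes each (10.9%), while they hold 2.87% and 2.43% of the genes in the table. These 2 chromosomes were named after the counts were seen, and their excess was not tested. Chromosome 12 held Mcm7, Pole, Rfc2, Rfc3 and Rfc5, and chromosome 19 held Cdt1, Gins2, Gins3, Mcm5 and Orc6. Mcm8 (131954329 to 131984573) and Pcna (131376235 to 131380108) were both on chromosome 3, at separate positions.

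The replicates differed little in these genes. The ratio of RPKM + 1 passed 1.5-fold in 1 of the 46 genes, Pold4, where 4.26% of detected genes passed it. Between 10 and 250 RPKM, a range that holds most of the 46 genes but not Pold4, 45 of 6625 genes passed it. Replicate 2 was the higher in 23 genes and the lower in 23, with a median log2 ratio of -0.0045. The median size of the log2 ratio was 0.0934 in the 46 genes and 0.0926 in the 6625 genes of the table between 10 and 250 RPKM. For the 31 genes with whole reads the share from replicate 2 was compared with the 50.5% expected from the read totals. The exact Clopper-Pearson 95% interval left out the expected share for 2 of the 31 genes, where it did for 6.07% of 8224 rows at 1 RPKM or more. They were Pold4, with a share of 18.8% (4.05 to 45.6%), and Gmnn, with 144 and 113 reads and a share of 44.0% (37.8 to 50.3%). These intervals compare 2 libraries, not conditions. Among the fibroblast and feeder cell markers the collagen gene Col1a1 was at 3.39 RPKM in replicate 1 and at 6.02 RPKM in replicate 2. For Col3a1 the values were 1.32 and 3.16 RPKM. Thy1, the other detected marker, had a mean of 1.37 ± 0.510 RPKM. All 3 were higher in replicate 2, and their part in the ratios of Gmnn and Pold4 was not tested.

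**Figure D4:**
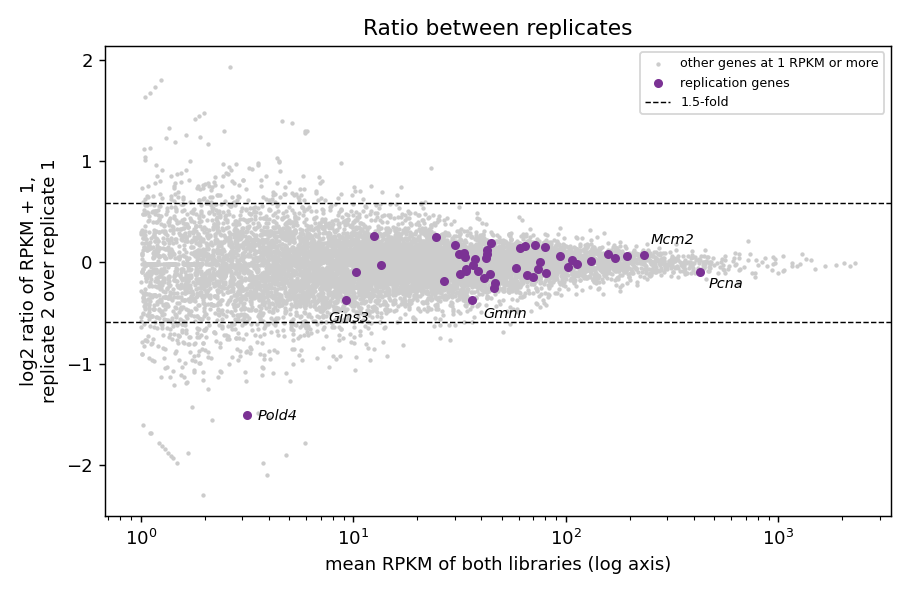
Log2 ratio of RPKM + 1 (replicate 2 over replicate 1) against mean RPKM on a log axis, for the 46 replication genes and for other detected genes in grey, with dashed lines at 1.5-fold. Pold4, at 5.16 and 1.17 RPKM, is the replication gene outside the lines, while Gmnn and Gins3 lie inside them.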

How the data were processed

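The authors deposited 1 table of RPKM values for rat RefSeq genes, with 1 column per library. CASAVA 1.8, TopHat 1.4.0 and the builds rn5 and Rnor_5.0 are named, per the submitters' processing notes. How reads were counted, and what was done with those matching several places, is not given in the sources used here. The 23716 rows were summed by Entrez identifier to 23282 genes. Members and lists were chosen with earlier results of these data known. Every member is named, and of each other list the 3 highest genes, the lowest and those listed at 0, with others marked in the text. Of the list genes 10 stood under another name in the table and were matched by RefSeq gene identifier.

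Levels are means ± SD over the 2 libraries, which form 1 group, and differences use log2(RPKM + 1). Each read total is the one that made the largest excess of rows whole, among rows with a locus under 6000 bp, taking the locus as gene model. It made 527 of 2700 such rows whole in replicate 1 and 525 of 2688 in replicate 2. Reads per row used the shortest model from 60 bp to the locus length (at most 20000 bp) at which each value was a whole number to within 3e-07 of itself, with under 0.01 matches due by chance. This held for 77.4% of 12970 rows. A length found so may be a fraction of the true one, which widens the intervals. In 4000 simulated rows 3.77% of unchanged rows fell outside the 95% interval, and 97.5% of 161 rows with a 2-fold change and at least 100 reads did. Simulated rows with a locus under 6000 bp had the locus as gene model, and only counting error was simulated. Reads were recovered for 99.15% of simulated rows, so the simulation does not show how well recovery works in the real rows. Promoter windows came from RefSeq (GRCr8), while positions of genes are on rn5. Protein sequence motifs were planned and not analysed here. Tools were matplotlib 3.10.9, scipy 1.17.1, pandas 2.3.3 and numpy 2.4.6, under Python 3.11.15. Alternatives were another pseudocount, detection level, scaling, row rule and average, and each library alone.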

Additional observations from a re-analysis of the deposited data

How the results depend on the processing

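Of 98 alternatives 32 took each replicate alone. With 2 libraries either one lies within 1 SD of their mean by construction, so these say nothing about stability, and Gmnn minus Cdt1 ran from -0.58 to -0.02. Of the other 66, 32 gave exactly the reported value, 6 moved it by less than the spread between replicates (a count by less than 1.5 times), and 28 moved it further. No difference changed sign. Rescaling each library to a sum of 1000000 raised every level. It moved the median of all 46 genes to 101, and those of MCM2-7, ORC, GINS, RFC, RPA, polymerase alpha-primase, delta and epsilon to 376, 86.6, 50.3, 154, 175, 122, 151 and 64.0. It also put 24 of the 46 genes at 100 or more in place of 9, with 10.9% of all genes there. Means in place of medians gave 70.7 RPKM for the 46 genes and, in the same order of complexes, 155, 46.2, 24.9, 63.7, 67.2, 63.1, 62.0 and 25.6 RPKM. Means of log2(RPKM + 1) over genes, not the log2 of these means, put MCM2-7 above ORC by 1.66 and above Mcm8 and Mcm10 by 2.08. Taking the higher row of Pola1 gave a median of 42.9 RPKM for the 46 genes and 52.2 RPKM for polymerase alpha-primase. Leaving out the 14 genes with a named RefSeq copy, chosen after the data were seen, gave 42.0 RPKM. MCM2-7 minus ORC was 2.11 after rescaling and 2.12 with a pseudocount of 0.1, and Rrm2 minus Rrm2b was 0.40 with that pseudocount. With a minimum of 10 RPKM, 0 genes passed 1.5-fold between replicates, since Pold4 is below it. No paired analysis was possible because there is 1 group. Among the 31 genes with whole reads, Pold4 and Gins3 had the fewest.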
